A study of Mus musculus with 2 samples.

Results

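Notch signalling genes were examined in C2C12 cells, a mouse myoblast line that fuses into myotubes when serum is lowered. The 10 genes were the receptors Notch1, Notch2 and Notch3, the ligands Dll1, Jag1 and Jag2, the glycosyltransferase gene Lfng, and the transcription factor genes Hes1, Hey1 and Heyl. They were read by 19 probe sets, each a group of short probes for 1 transcript region, out of 34945 probe sets that the platform annotation ties to a single gene symbol (18193 genes). Every probe set with one of the 10 symbols was taken. The series asked which genes differ when Lrrfip1, which encodes a nucleic acid-binding protein, is depleted. The depleted culture carried a hairpin against Lrrfip1 (shLrrfip1a), and the control culture carried a hairpin that the sample labels spell shLCUI. Both were grown in 10% fetal bovine serum and then held in 2% horse serum for 5 days to differentiate, and total RNA of each was hybridised to 1 Affymetrix mouse array. Whether a culture came from 1 clone or a pool of infected cells is not given in the sources used here. With 1 array per group there is no replicate check, and no p-value or SD between cultures is given.

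Notch is a receptor that is cut when a ligand on a neighbouring cell binds it. The freed intracellular domain enters the nucleus, joins the DNA-binding protein RBPJ and a Mastermind protein, and switches on genes such as those of the Hes and Hey repressors. In skeletal muscle the pathway is known for keeping satellite cells quiescent and for holding back the differentiation of myoblasts, and Fringe enzymes such as LFNG add a sugar to the receptor that changes which ligands it answers to.

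The deposited values are intensities on a linear scale, with medians of 53.54 on the shLrrfip1a array and 51.41 on the control array. A difference is log2(intensity + 16) on the shLrrfip1a array minus the same on the control array, so changes of dim genes come out smaller than they are. A gene with several probe sets was represented by the brightest, and counts were made over the 11448 genes brighter than the median probe set (52.4), among them all 10 Notch genes. The central 95% of these genes differed by -0.58 to 0.58. Lrrfip1 itself was lower on all 3 of its probe sets, by a mean of -0.55 ± 0.09 (SD over the 3 probe sets, not over cultures). This mean lay inside the central 95% of genes, so the measured fall in Lrrfip1 RNA was modest. Myotube genes were bright on both arrays: the skeletal actin gene Acta1 read 5220 in shLrrfip1a and 5586 in control, and the embryonic myosin gene Myh3 read 1294 and 1256 in the same order. The bacterial and phage spike-in probe sets had a median difference of -0.16, and scaling the arrays to them raises the difference of every gene by the size of that shift. With that scaling the mean Lrrfip1 difference was -0.39.

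The largest difference among the 10 genes was that of Lfng, which was higher in shLrrfip1a, followed by Notch3, which was lower, and Notch1, which was higher. The promoters of these 3 genes are shown because they carry the 3 largest differences and because RBPJ, the DNA-binding protein of the pathway, is known to recognise the core TGGGAA. Each runs 5′ to 3′ on the strand of the gene, from 250 bases before the annotated start to 50 after it (RefSeq, GRCm38.p6), and capitals mark the core on either strand.
Lfng promoter, chr5:140607091-140607390, plus strand: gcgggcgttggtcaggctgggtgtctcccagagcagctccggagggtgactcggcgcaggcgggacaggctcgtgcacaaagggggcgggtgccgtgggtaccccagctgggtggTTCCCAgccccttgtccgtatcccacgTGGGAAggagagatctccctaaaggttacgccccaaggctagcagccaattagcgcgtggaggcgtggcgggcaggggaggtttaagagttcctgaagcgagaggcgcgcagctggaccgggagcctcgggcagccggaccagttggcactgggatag
Notch1 promoter, chr2:26503773-26504072, minus strand: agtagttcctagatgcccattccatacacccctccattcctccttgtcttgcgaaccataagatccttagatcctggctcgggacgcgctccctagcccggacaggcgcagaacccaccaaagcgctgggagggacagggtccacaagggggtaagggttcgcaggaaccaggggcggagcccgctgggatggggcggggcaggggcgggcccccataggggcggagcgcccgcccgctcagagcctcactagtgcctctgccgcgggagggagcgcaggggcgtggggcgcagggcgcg
Notch3 promoter, chr17:32166841-32167140, minus strand: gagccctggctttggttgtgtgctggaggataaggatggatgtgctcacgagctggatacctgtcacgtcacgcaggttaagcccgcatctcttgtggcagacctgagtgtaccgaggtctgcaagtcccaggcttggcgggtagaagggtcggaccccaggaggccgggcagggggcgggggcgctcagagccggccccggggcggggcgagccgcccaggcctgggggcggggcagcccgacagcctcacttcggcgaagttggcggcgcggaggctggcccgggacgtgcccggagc
The Lfng window held the core 2 times, once on each strand. The match on the opposite strand, read here as TTCCCA, lay 135 to 130 bases before the start, and the match on the gene's own strand lay 108 to 103 bases before it, so 21 bases separated them. In all, 25.6% of 32851 mouse promoter windows of the same length held at least 1 match on either strand and 3.79% held 2 or more. The other 7 windows found for these genes, of Notch1, Notch2, Notch3, Jag1, Jag2 and 2 starts of Dll1, held none. Promoters of Hes1, Hey1 and Heyl were not analysed here. The windows were rich in G and C, at 66.7% for Lfng, 68.3% for Notch1 and 70.0% for Notch3, against a median of 52.7% over all windows. A match describes letters in a window and is not a measured binding site.

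Lfng encodes the Fringe enzyme that extends O-fucose on Notch receptors, and its brighter probe set read 156.87 in shLrrfip1a against 75.19 in control. The other Lfng probe set was dimmer and read 40.94 in shLrrfip1a against 27.36 in control. Both were higher in shLrrfip1a, by 0.92 and 0.39 on the log2 scale. The intensities of the brighter probe set stood in a ratio of 2.09, but with the added constant of 16 the difference stayed under the 2-fold size used for counting, a log2 difference of 1. With a constant of 1 it was 1.05 and past that size, and it was 1.08 and past it with spike-in scaling. Of the 11448 genes, 0.812% had a higher difference than Lfng. The other Fringe genes were level: Mfng read 55.45 in shLrrfip1a against 52.55 in control (0.06), and Rfng read 256 against 251 (0.03).

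The 3 receptor genes did not share a direction. Notch1, the receptor most studied in satellite cells, read 500.06 in shLrrfip1a against 363.87 in control on its brighter probe set and 189.32 against 124.50 on the other. Both Notch1 probe sets were thus higher in shLrrfip1a, with log2 differences of 0.44 and 0.55, and 4.90% of genes had a higher difference than its brighter one. Notch3, a receptor also known from vascular smooth muscle, read 343.96 in shLrrfip1a against 584.07 in control on its brighter probe set. Its other probe set read 73.05 in shLrrfip1a against 73.84 in control. The Notch3 log2 difference was therefore -0.74 on one probe set and -0.01 on the other. The brighter one carries the suffix that Affymetrix gives to probe sets able to bind more than one transcript, and the 2 were not resolved further. On the brighter probe set, 1.6% of genes had a lower difference. Notch2 read 1395.90 in shLrrfip1a against 1196.34 in control (0.22), and its dimmer probe set read 70.01 against 71.71 (-0.03). The Notch2 probe sets thus differed in sign, and both differences were well inside the central 95% of genes. Notch4, a receptor mainly of endothelial cells, lay near the median level (50.7 in shLrrfip1a and 56.0 in control, -0.11).

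The ligand genes were slightly higher in shLrrfip1a on their brightest probe sets. Dll1, a Delta-like ligand found on differentiating myoblasts, read 491.51 in shLrrfip1a against 412.44 in control on its single probe set (0.24). Jag1, a Jagged ligand, was higher on all 3 of its probe sets, which read 293.33, 100.11 and 97.09 in shLrrfip1a against 256.92, 77.77 and 71.17 in control. The Jag1 differences were 0.18, 0.31 and 0.38. Jag2, the second Jagged ligand, read 100.15 in shLrrfip1a against 96.58 in control (0.05), while its dimmer probe set read 34.02 against 42.47 (-0.23). Jag2 had no settled sign, since the mean over its probe sets was -0.09. None of the ligand differences on brightest probe sets lay outside the central 95% of genes. The ligand gene Dll4 lay near the median level (54.65 in shLrrfip1a and 51.41 in control, 0.07), and Dll3 was dim on both arrays (21.95 and 19.92).

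The 3 Hes and Hey genes, which encode repressors of the basic helix-loop-helix class that Notch induces, differed by -0.25 to 0.14 on their brightest probe sets. Hes1 read 197.46 in shLrrfip1a against 237.87 in control on its single probe set (-0.25). Hey1 read 146.94 in shLrrfip1a against 132.11 in control, also on a single probe set (0.14). Heyl was lower on all 3 of its probe sets, which read 77.49, 51.01 and 36.25 in shLrrfip1a against 90.68, 72.31 and 48.34 in control. The Heyl differences were -0.19, -0.40 and -0.30, with the larger ones on the dimmer probe sets. With spike-in scaling, which sets the median of all genes at 0.16 instead of 0.00, Heyl differed by -0.03 and Hes1 by -0.09. Hes6, whose product is known to counter HES1 and to favour myogenic differentiation, read 580 in shLrrfip1a against 753 in control (-0.37, and -0.28 on its other probe set). The direct Notch target and feedback inhibitor Nrarp read 78.9 in shLrrfip1a against 65.2 in control (0.23, and 0.04 on its other probe set). Hes5 (45.5 in shLrrfip1a and 38.5 in control) and Hes7 (44.8 and 31.9) lay below the median level, and Hey2 lay near the floor of the scale (3.60 and 1.85).

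**Figure D1:**
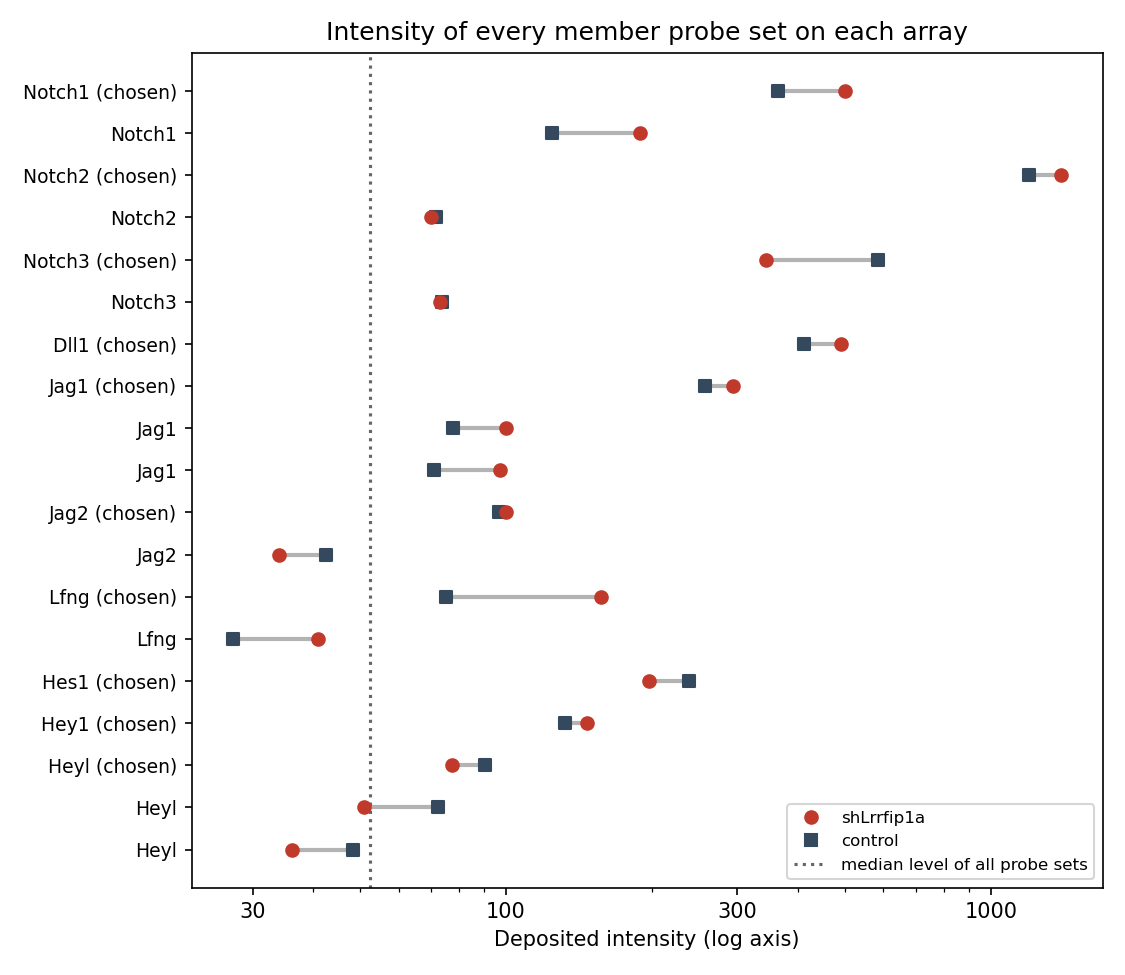
Deposited intensity (log axis) of each of the 19 probe sets of the 10 Notch genes, with circles for the shLrrfip1a array, squares for the control array and 1 line per probe set; "chosen" marks the brightest probe set of a gene and the dotted line is the median level of 52.4. The widest gaps are those of the chosen probe sets of Lfng (156.87 in shLrrfip1a, 75.19 in control) and Notch3 (343.96 in shLrrfip1a, 584.07 in control), and the second Notch3 probe set shows almost none.

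Over the 10 genes, 7 were higher and 3 lower in shLrrfip1a, where 50.7% of all genes were higher and 49.3% lower. None of the 10 reached 2-fold, against 1.35% of all genes, a share at which 10 genes would mostly give none. At 1.5-fold, a log2 difference of 0.58, there were 2 of 10, Lfng higher and Notch3 lower, against 4.80% of all genes in either direction, 2.34% higher and 2.46% lower. The median difference of the 10 was 0.16, beside 0.00 over all genes, and the median absolute difference was 0.23, beside 0.16. Of the 19 probe sets, 11 were higher and 8 lower. Among the 7 genes with several probe sets, the probe sets shared a sign in 5 (Notch1, Notch3, Jag1, Lfng and Heyl) and differed in sign in Notch2 and Jag2. The sign rule rested on a nearly level dimmer probe set in Notch3 (-0.01) and in Notch2 (-0.03). All probe sets shared a sign in 48.8% of the 7124 genes above the median level that had several. Several probe sets for 1 gene share their RNA sample and are not replicates of a culture.

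**Figure D2:**
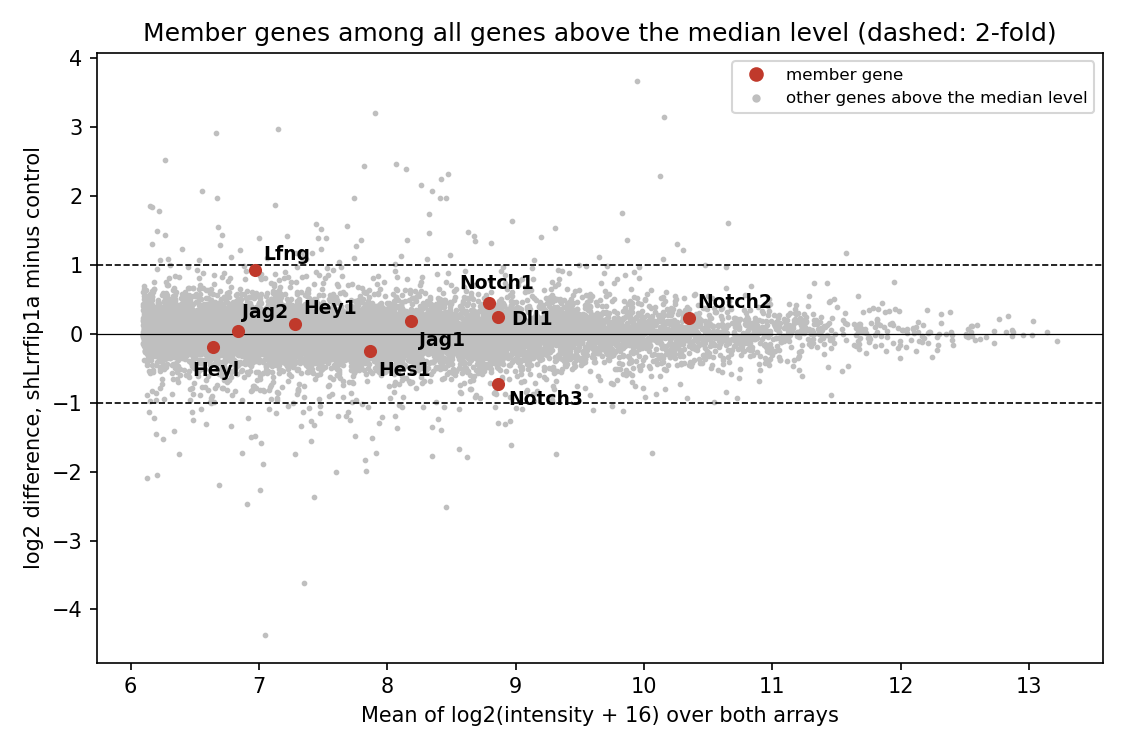
Log2 difference (shLrrfip1a minus control) against the mean of log2(intensity + 16) over both arrays for 11448 genes (grey points), with the 10 Notch genes as labelled red points and dashed lines at 2-fold. Lfng at 0.92 lies just under the upper line, Notch3 at -0.74 lies above the lower one, and the other 8 Notch genes lie inside the grey band.

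The wider pathway was read with a list of 77 genes that includes the 10. Of these, 73 had a probe set with a single symbol and 61 lay above the median level. Of the 61, 32 were higher and 29 lower in shLrrfip1a, with a median of 0.02, and 1 was at least 2-fold lower (Col5a3) while none was at least 2-fold higher, against 0.690% and 0.664% of all genes. Leaving out the 10 genes and the muscle genes described below, 44 genes of the Notch machinery remained, split into 22 higher and 22 lower. Over all genes, 50.7% were higher and 49.3% lower. On their brightest probe sets all 44 lay within -0.46 to 0.45, and some of their other probe sets lay outside that range.

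Of 8 genes of receptor cleavage, 7 were lower in shLrrfip1a as deposited, where 49.3% of all genes were lower, and with spike-in scaling 4 were higher and 4 lower. Their median was -0.14, beside 0.00 over all genes. None reached 1.5-fold on its brightest probe set, against 4.80% of all genes. Adam17, a metalloprotease that can cut Notch outside the membrane, read 250, 209 and 97.7 in shLrrfip1a against 351, 357 and 126 in control on its 3 probe sets. It was lower on each, by -0.46, -0.73 and -0.32. Adam10, the metalloprotease mainly held to make the ligand-induced cut, was level (524 in shLrrfip1a against 492 in control, 0.09). Aph1a, a subunit of the gamma-secretase that makes the cut inside the membrane, was lower on all 3 of its probe sets (-0.34, -0.50 and -0.59), with 327 in shLrrfip1a against 417 in control on the brightest. Its homologue Aph1b differed by -0.22 and -0.53. The remaining secretase subunits were closer to level on their brightest probe sets, with Psen2 at -0.18, Ncstn at -0.05 and Psenen at -0.04.

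Of 6 nuclear complex genes above the median level, 3 were higher and 3 lower in shLrrfip1a, where 50.7% of all genes were higher and 49.3% lower. On their brightest probe sets Kat2a differed by 0.26 and Snw1 by -0.21. Rbpj itself read 906 in shLrrfip1a against 963 in control and differed by -0.09, -0.10 and -0.08 on its 3 probe sets. The largest difference in this group was that of the acetyltransferase gene Ep300, a coactivator of the Notch complex (534 in shLrrfip1a against 386 in control, 0.45), and Maml1, a Mastermind gene, differed by 0.14. Among corepressor genes the largest difference was that of Tle1, a Groucho family partner of the Hes repressors (135 in shLrrfip1a against 168 in control, -0.28). Of the genes that limit or degrade Notch, Numb read 155 in shLrrfip1a against 202 in control (-0.35) but 0.04 on its other probe set, and Dtx3 differed by -0.35. Among enzymes that modify Notch, Pofut1, which adds the O-fucose that Fringe enzymes extend, differed by 0.32 on its brightest probe set and by 0.04 and -0.23 on the others. Mib1, the ubiquitin ligase that drives ligand endocytosis, differed by 0.26.

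**Figure D3:**
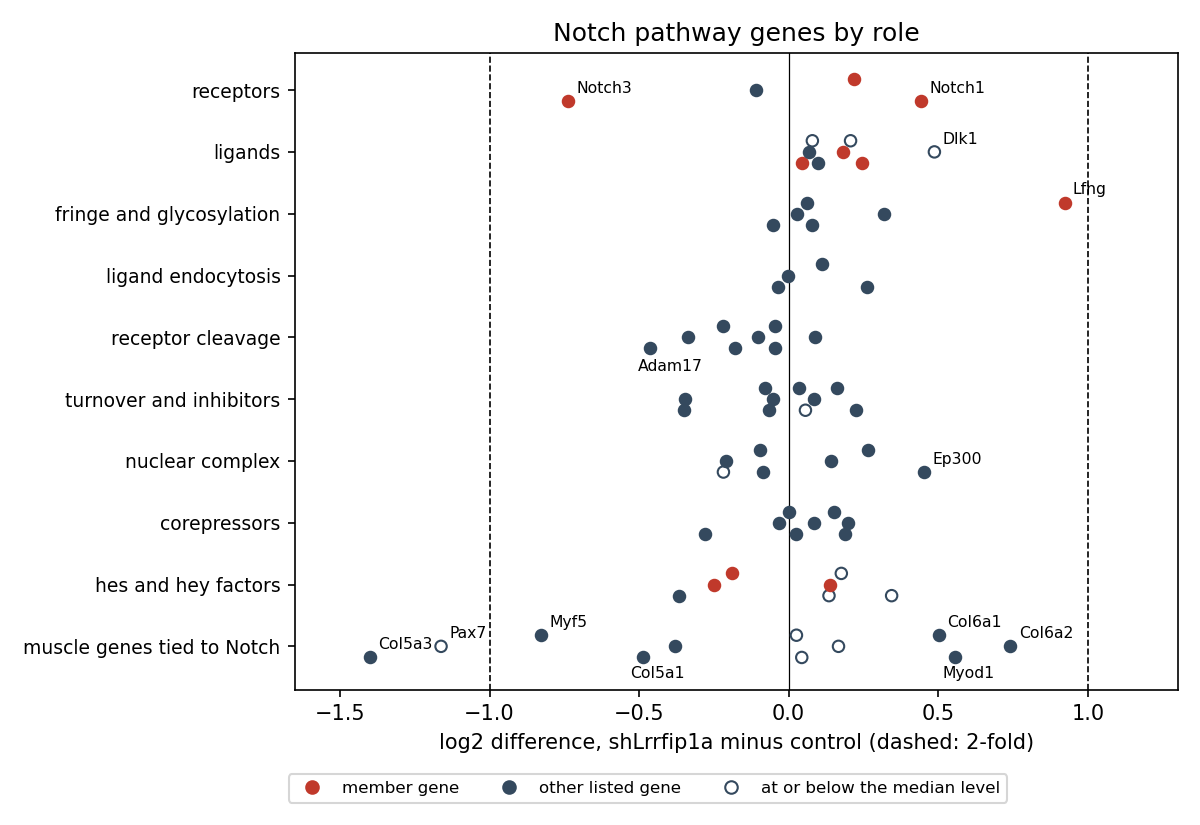
Log2 difference (shLrrfip1a minus control) of the 73 measured genes of the wider list, 1 row per role, with the 10 Notch genes in red, the others in dark blue and open circles for genes at or below the median level; dashed lines mark 2-fold. The machinery rows cluster around 0 with Lfng (0.92) and Notch3 (-0.74) at their edges, and the widest spread is in the row of muscle genes, from Col5a3 at -1.40 to Col6a2 at 0.74.

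A final group held 11 muscle genes that have been tied to Notch in mouse satellite cells and myoblasts. Above the median level lay 7 of them, 3 higher and 4 lower in shLrrfip1a, where 50.7% of all genes were higher and 49.3% lower. Their median of -0.38, beside 0.00 over all genes, was the value of Myog alone, in a group that ran from -1.40 to 0.74. The collagen genes of this group were Col5a3 and Col5a1, which encode collagen V chains, and Col6a1 and Col6a2, which encode collagen VI chains. Col5a3 read 194.52 in shLrrfip1a against 539.55 in control on its brighter probe set (-1.40), but its dimmer probe set went the other way (47.4 against 34.7, 0.32). Col5a1 was lower on all 3 probe sets, by -0.49, -0.70 and -0.78, with 2320 in shLrrfip1a against 3257 in control on the brightest. The collagen VI genes differed in the opposite direction, with Col6a2 at 3542 in shLrrfip1a against 2112 in control (0.74, and 0.84 on its other probe set) and Col6a1 at 0.50. Pax7, the transcription factor gene of satellite cells, read 22.6 and 17.7 in shLrrfip1a against 70.4 and 57.7 in control on its 2 probe sets. Both Pax7 probe sets were lower (-1.16 and -1.13), but their mean levels lay below the median, so Pax7 was not among the genes counted. The other genes of this group below the median level did not follow Pax7. On their brightest probe sets Calcr differed by 0.17, Mef2c by 0.04 and Pax3 by 0.03. The myogenic factor gene Myf5 read 82.8 in shLrrfip1a against 159 in control (-0.83), and Myod1, whose activity Notch is known to restrain, read 894 against 602 (0.56, with a second probe set near the floor). Myog, the factor gene of terminal differentiation, read 2005 in shLrrfip1a against 2612 in control (-0.38).

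Markers of undifferentiated or reserve myoblasts did not move together beside these values: Pax7 and Myf5 were lower in shLrrfip1a, Cd34 was higher (386 against 270 in control, 0.49) and Sdc4 differed by -0.12, and the summed intensity of the 4 genes was 1304 in shLrrfip1a and 1384 in control. The 7 myotube markers summed to 13379 in shLrrfip1a and 14698 in control. Of these, 2 were higher and 5 lower, where 50.7% of all genes were higher and 49.3% lower. None was past 1.5-fold, against 4.80% of all genes, a share at which 7 genes would mostly give none. Of 5 endothelial markers only Kdr had a mean above the median level (118 in shLrrfip1a against 48.0 in control, 1.07). Kdr passed that level only through the shLrrfip1a array, since its control reading was below 52.4. Pecam1, Cdh5, Tek and Emcn read 33.6 or less in shLrrfip1a and 31.1 or less in control. The 5 markers of pericytes and smooth muscle, cells in which Notch3 and Heyl are well known, summed to 10047 in shLrrfip1a and 8364 in control, but most of that sum was the actin gene Acta2 (7969.5 in shLrrfip1a and 6655 in control). Of the 4 above the median level, Acta2 (0.26) and Pdgfrb (0.35) were higher and Cspg4 (-0.23) and Myh11 (-0.16) lower, with a median of 0.05, and the pericyte marker Rgs5 was dim on both arrays (22.67 and 15.96). The part of these markers in the differences of the Notch genes was not tested. In bulk RNA, fewer cells of a type and less RNA per cell cannot be told apart.

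Under 7 other settings of scaling, added constant and probe set choice, 9 of the 10 genes kept the sign of their difference, and Jag2 did not. Lfng ranged from 0.66 to 1.08, Notch3 from -0.78 to -0.375 and Notch1 from 0.40 to 0.60. The smallest Lfng and Notch3 differences by size came from averaging over probe sets. Spike-in scaling turned the split of all genes past 2-fold from 76 higher and 79 lower into 116 higher and 53 lower.

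**Figure D4:**
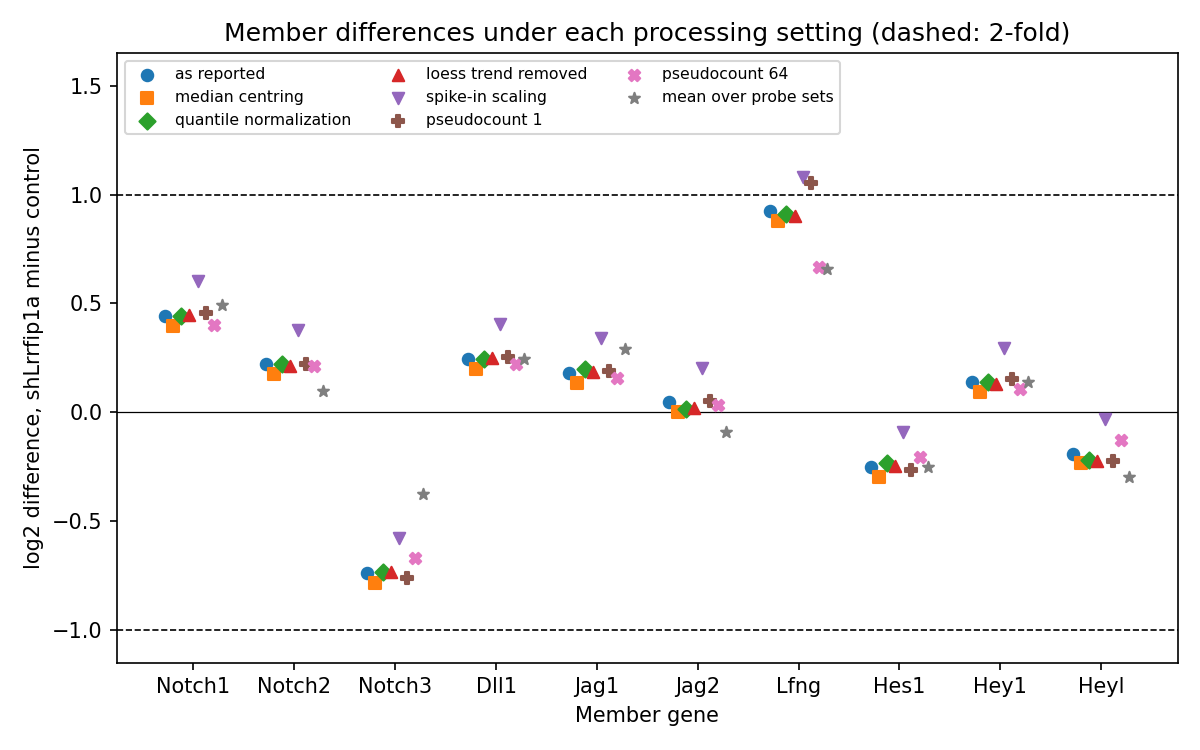
Log2 difference (shLrrfip1a minus control) of each Notch gene as reported and under 7 other settings, 1 marker shape per setting, with dashed lines at 2-fold. Lfng passes the upper line under spike-in scaling (1.08) and with an added constant of 1 (1.05), and Notch3 stays above the lower line under every setting shown.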

How the data were processed

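Total RNA (6 ug per sample, per the labels' protocols) of 1 shLrrfip1a and 1 control culture was read on Affymetrix mouse arrays. The authors deposited 1 linear intensity per probe set and array; how they were summarised and scaled is not given in the sources used here, and no detection calls were used, so no gene can be called absent, and the number of arrays limits the precision. Probe sets were named through the platform annotation, and those with several symbols or none were left out (none of those with several named one of the 10 genes). Values were taken as log2(intensity + 16) with Python 3.11.15, numpy 2.4.6, pandas 2.3.3 and statsmodels 0.14.6. Genes past 2-fold were counted by size alone. Alternatives were median centring, quantile normalization, loess trend removal, spike-in scaling, constants of 1 and 64, the mean over probe sets, other level filters and a 1.5-fold size. The 10 genes, the wider lists and the alternatives were chosen with earlier results of these data known. Named genes were the 10, any listed gene past 1.5-fold, the largest of each role and a few fixed pathway genes; genes of similar pattern were not ranked, since 2 arrays give a single difference. The log2 difference and the choice of the brightest probe set were tested on simulated data with planted changes. The other steps were not tested in that way.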

Additional observations from a re-analysis of the deposited data

How the results depend on the processing

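No paired analysis was possible because both groups hold a single array, and no replicate could be left out. A value was taken as moved when it changed by more than 0.233, the robust SD of the differences of all genes between these 2 arrays, which is no spread between cultures. Of 70 values of the 10 genes under the alternatives, 67 moved by less. Part of that count was fixed beforehand. Median centring and spike-in scaling shift every gene by the same amount, smaller than 0.233, so their values could not count as moved. The mean over probe sets cannot change the 3 genes with a single probe set. The exceptions were Lfng at 0.67 with a constant of 64 and 0.66 with the mean over probe sets, and Notch3 at -0.375 with that mean. The number of Notch genes past 2-fold, 0 as reported, was 1 with spike-in scaling and 1 with a constant of 1 (Lfng in both), and 2 at 1.5-fold. In the wider list the counts of 0 higher and 1 lower became 1 higher with spike-in scaling and 1 higher with a constant of 1, 0 lower with the mean over probe sets, 2 lower with no filter, and 2 higher and 3 lower at 1.5-fold. Over all genes, 76 higher and 79 lower became 116 higher with spike-in scaling, 44 lower with a constant of 64, 48 higher and 46 lower with the filter at the 75th percentile, and 268 higher and 282 lower at 1.5-fold. The mean over probe sets brought Notch3 and Lfng closer to 0 because it includes their dimmer probe sets, which differed by -0.01 and 0.39. Dim probe sets, such as the second ones of Lfng and Jag2, limit what can be read from their differences.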
